A study of Mus musculus with 4 samples.

Results

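The 8 genes Ltf, Camp, Ngp, Lcn2, Mmp8, Mmp9, Chil3 and Wfdc21 were grouped as genes of the secondary and tertiary granules of neutrophils. They were taken by gene symbol out of 22520 genes profiled by RNA-seq in mouse bone marrow. Where their proteins are stored was not tested. All 8 had a row in the deposited tables and all 8 passed the filter on low counts. The samples were 2 Cyba-/- mice (Cyba-KO replicates 1 and 2) and 2 wild type mice (WT replicates 1 and 2), all on the C57BL/6 strain. The labels give no age and no treatment, and do not say in which cells or by which allele Cyba was lost. Marrow came from femurs, tibias and hips, erythrocytes were removed by lysis, and cells bearing markers of mature blood lineages were removed with magnetic beads, so that a fraction enriched for stem and progenitor cells was left. Cyba encodes p22phox, the membrane subunit without which the phagocyte NADPH oxidase makes no superoxide. The series title places the comparison in a question on stem cell number and a myeloid bias in Cyba-deficient mice.

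Neutrophils fill their granules in waves as they mature in the marrow. Promyelocytes make the primary (azurophil) granules with myeloperoxidase and elastase. Myelocytes then make the secondary (specific) granules with lactoferrin, cathelicidin and lipocalin, and later stages make the tertiary (gelatinase) granules, so mRNA of the later granules marks cells that have moved past the promyelocyte stage. The transcription factor C/EBP-epsilon is needed for secondary granule genes in mice and in humans.

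All 8 genes were higher on average in Cyba-KO marrow, by 2.97-fold to 3.78-fold between the group means. Yet 0 of 8 passed the genome-wide test, which called 0 of the 13723 genes tested. For Ltf, Camp, Ngp, Lcn2, Mmp8 and Mmp9 the Cyba-KO mice lay further apart from each other than the genotype means did. In Camp this was narrow, at 3.53-fold against 3.41-fold. For Ltf, Ngp, Lcn2, Mmp8 and Mmp9, Cyba-KO replicate 1 also lay below WT replicate 2. Chil3 and Wfdc21 were higher in each Cyba-KO library than in either WT library by at least 2.16-fold, and they were the genes of the 8 that DESeq2 called. In every one of the 8 genes, replicate 2 was above replicate 1 in both genotypes.

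Upstream sequence was read for the 6 genes with an entry in the RefSeq promoter table (GRCm38.p6), and the 4 shown here are 3 that hold a full C/EBP-type motif and, for contrast, Chil3, which holds none. The motif searched was TTGCNNAA on both strands, in the 250 bases before the RefSeq start site, and capitals mark it. Each run is given 5′ to 3′ on the strand of the gene and ends at the RefSeq or GENCODE start, whichever lies further upstream. Ltf is shown from chr9:111019042-111019270 (plus strand), Ngp from chr9:110419558-110419746 (plus strand), Mmp8 from chr9:7558179-7558428 (plus strand) and Chil3 from chr3:106167565-106167814 (minus strand).
Ltf: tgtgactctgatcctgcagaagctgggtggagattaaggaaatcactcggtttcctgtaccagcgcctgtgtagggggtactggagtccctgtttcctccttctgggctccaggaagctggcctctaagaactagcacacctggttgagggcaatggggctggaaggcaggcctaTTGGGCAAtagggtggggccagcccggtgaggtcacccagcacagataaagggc
Ngp: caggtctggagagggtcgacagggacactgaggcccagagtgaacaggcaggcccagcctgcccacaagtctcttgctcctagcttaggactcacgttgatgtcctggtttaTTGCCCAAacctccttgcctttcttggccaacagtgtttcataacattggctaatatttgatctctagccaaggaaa
Mmp8: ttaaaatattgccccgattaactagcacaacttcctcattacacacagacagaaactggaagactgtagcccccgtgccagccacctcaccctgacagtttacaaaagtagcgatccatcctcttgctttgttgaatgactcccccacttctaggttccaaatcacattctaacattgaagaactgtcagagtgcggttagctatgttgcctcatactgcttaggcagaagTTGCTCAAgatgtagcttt
Chil3: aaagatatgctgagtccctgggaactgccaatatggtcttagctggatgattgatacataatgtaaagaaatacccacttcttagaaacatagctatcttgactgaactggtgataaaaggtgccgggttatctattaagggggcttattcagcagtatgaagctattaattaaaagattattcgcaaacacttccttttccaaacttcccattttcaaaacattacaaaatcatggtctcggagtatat

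TTGCNNAA occurred in 4 of the 6 promoters (Ltf, Ngp, Lcn2 and Mmp8), against 9.56% of 32851 promoters of the same length. The Ltf match, TTGGGCAA, began 75 bases before the RefSeq start. Ngp held TTGCCCAA 138 bases before it and TTGGGCAA 11 bases before it, the last within the stretch that GENCODE already counts as the gene. Mmp8 held TTGCTCAA 19 bases before its start, and Lcn2 the same letters 216 bases before its RefSeq start. The RefSeq start of Lcn2 lies 513 bases inside the GENCODE gene, so its whole window and the match fall within that gene. For Camp the RefSeq start lies 161 bases inside the GENCODE gene. The looser form TTNNGNAA, which contains the reverse complement of TTGCNNAA, was found in 5 of 6 against 36.8% of all promoters, the exception being Camp. GAGGAA, the core of sites for the myeloid factor PU.1, was found in 3 of 6 against 23.3%. The motifs were picked with the genes already known, a match is no evidence of binding, and the search covered only these windows.

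Estimated reads, summed over the 21981 genes kept after the repair of the tables, were 23119585 and 22871338 for Cyba-KO replicates 1 and 2. They were 23690867 and 22409164 for WT replicates 1 and 2. Cyba itself stood at 1.25 and 1.37 CPM (counts scaled to library size) in the Cyba-KO libraries, against 56.7 and 39.0 CPM in the WT libraries, as the labels require. The progenitor markers Kit and Cd34 were expressed in all 4 libraries, Kit at 221 and 290 CPM in Cyba-KO and 266 and 301 CPM in WT. Cyba-KO replicate 2 stood apart in the granule genes, so the fold changes of the 8 genes are also given without it. Those of other genes and lists rest on all 4 libraries. In bulk RNA, fewer or more cells of a type and less or more RNA per cell cannot be told apart.

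**Figure D1:**
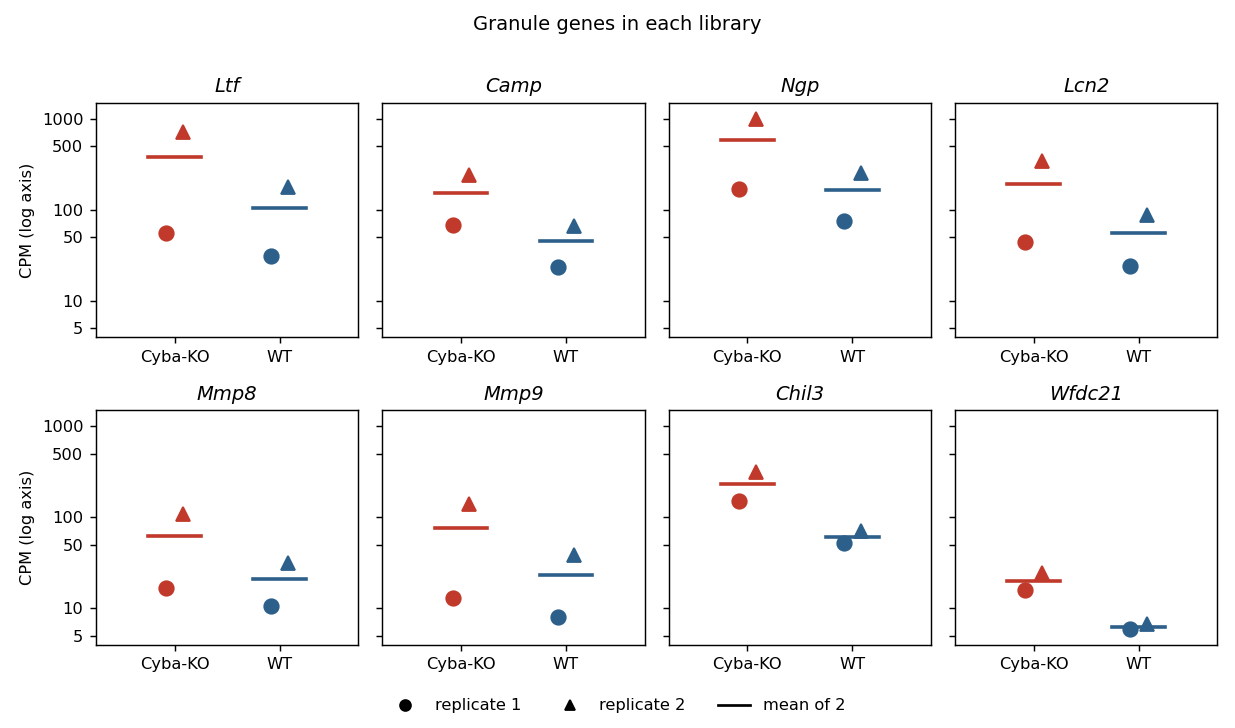
CPM of each of the 8 genes (1 panel a gene, shared log axis) in Cyba-KO (red, left) and WT (blue, right). Circles are replicate 1, triangles replicate 2 and bars the mean of 2 libraries. The red circle lies below the blue triangle for Ltf, Ngp, Lcn2, Mmp8 and Mmp9, level with it for Camp, and above it for Chil3 and Wfdc21.

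Among the antimicrobial proteins of the secondary granule, Ltf encodes lactoferrin, which binds iron and so withholds it from microbes (chr9:111019271-111042767, plus strand, GRCm38). Ltf had 55.6 and 714 CPM in Cyba-KO replicates 1 and 2, against 30.8 and 176 CPM in WT replicates 1 and 2. The genotypes overlapped, since Cyba-KO replicate 1 was at 0.316 times the level of WT replicate 2. The Cyba-KO mice differed from each other by 12.9-fold and the WT mice by 5.71-fold, against 3.72-fold between the group means of 385 ± 466 CPM in Cyba-KO and 103 ± 103 CPM in WT (SD, n = 2 each). No other gene of the 13723 tested had a larger log2 difference between the Cyba-KO mice, and 2 had a larger one between the WT mice.

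Camp encodes the cathelicidin precursor, from which an antimicrobial peptide is cut after release (chr9:109847379-109849617, minus strand). Its levels were 67.7 and 239 CPM in Cyba-KO replicates 1 and 2 and 23.5 and 66.6 CPM in WT replicates 1 and 2. Both Cyba-KO libraries were above both WT libraries, but by a margin of only 1.02-fold between Cyba-KO replicate 1 and WT replicate 2. Camp averaged 154 ± 121 CPM in Cyba-KO and 45.1 ± 30.4 CPM in WT (SD, n = 2 each).

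Ngp encodes neutrophilic granule protein, a relative of the cathelicidin precursors (chr9:110419747-110423012, plus strand). It had the most reads of the 8 genes in each library, with 167 and 1006 CPM in Cyba-KO replicates 1 and 2 and 75.0 and 256 CPM in WT replicates 1 and 2. The low Cyba-KO library was again below the high WT library. The means were 587 ± 593 CPM in Cyba-KO and 166 ± 128 CPM in WT (SD, n = 2 each).

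Lcn2 encodes lipocalin 2, which binds the siderophores that bacteria use to take up iron (chr2:32384633-32388252, minus strand). Lcn2 was measured at 44.5 and 341 CPM in Cyba-KO replicates 1 and 2 and at 24.0 and 87.3 CPM in WT replicates 1 and 2. The groups overlapped, with replicate 1 low and replicate 2 high in each. Lcn2 averaged 193 ± 210 CPM in Cyba-KO and 55.6 ± 44.8 CPM in WT (SD, n = 2 each).

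The collagenase and the gelatinase of the granules are zinc proteases that cut matrix proteins. Mmp8, neutrophil collagenase of the secondary granules (chr9:7558456-7568485, plus strand), had 16.9 and 109 CPM in Cyba-KO replicates 1 and 2 and 10.6 and 31.8 CPM in WT replicates 1 and 2. Mmp9, gelatinase B and the namesake enzyme of the tertiary granules (chr2:164940780-164955850, plus strand), had 12.9 and 139 CPM in the Cyba-KO libraries and 8.09 and 38.5 CPM in the WT libraries. Both genes were high in replicate 2 of either genotype, and Cyba-KO replicate 1 was at 0.530 times (Mmp8) and 0.336 times (Mmp9) the level of WT replicate 2. Mmp8 averaged 62.9 ± 65.2 CPM in Cyba-KO and 21.2 ± 15.0 CPM in WT, and Mmp9 averaged 76.0 ± 89.2 CPM in Cyba-KO and 23.3 ± 21.5 CPM in WT (SD, n = 2 each). Mmp9 varied between mice of 1 genotype nearly as much as Ltf, with 1 tested gene showing a larger difference between the Cyba-KO mice. The ratio of Mmp9 to Mmp8 CPM was 0.768 and 1.28 in Cyba-KO replicates 1 and 2 and 0.765 and 1.21 in WT replicates 1 and 2, so that it followed the replicate number and not the genotype.

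Chil3 encodes a secreted chitinase-like lectin of mouse myeloid cells (chr3:106147554-106167564, minus strand), and Wfdc21 a small secreted protein with a whey acidic protein domain (chr11:83746940-83752642, plus strand). Chil3 had 152 and 312 CPM in Cyba-KO replicates 1 and 2 and 52.4 and 70.4 CPM in WT replicates 1 and 2. Wfdc21 had 15.7 and 24.7 CPM in the Cyba-KO libraries and 5.90 and 6.69 CPM in the WT libraries. For both genes the groups were separate, Cyba-KO replicate 1 lying 2.16-fold (Chil3) and 2.35-fold (Wfdc21) above WT replicate 2. Chil3 averaged 232 ± 113 CPM in Cyba-KO and 61.4 ± 12.7 CPM in WT, and Wfdc21 averaged 20.2 ± 6.33 CPM in Cyba-KO and 6.29 ± 0.560 CPM in WT (SD, n = 2 each). Chil3 has close paralogs, so its reads may be divided uncertainly; the nearest by name, Chil4, had 14 and 33 reads in the Cyba-KO libraries and 6 and 5 reads in the WT libraries, against 3411 and 7299 for Chil3 in Cyba-KO and 1243 and 1578 in WT.

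The genotype test was edgeR's quasi-likelihood F test over 13723 genes with Benjamini-Hochberg adjustment. It called 0 genes (0%) at an adjusted p of 0.05, and 448 genes (3.26%) had an unadjusted p below that level. Cyba itself was thus not called, at 1.25 and 1.37 CPM in Cyba-KO against 56.7 and 39.0 CPM in WT. The lack of a call for the 8 genes is therefore no evidence that their levels were equal. All 8 genes had a log2 fold change above 0, against 48.9% of all tested genes, and an adjusted p of 0.841 in edgeR. The log2 fold changes were 1.90 (SE 1.42) for Ltf, 1.77 (SE 0.80) for Camp, 1.83 (SE 1.04) for Ngp and 1.79 (SE 1.13) for Lcn2. Those of the proteases were 1.57 (SE 1.02) for Mmp8 and 1.71 (SE 1.30) for Mmp9. Chil3 and Wfdc21 had fold changes of the same size with smaller errors, 1.92 (SE 0.40) and 1.68 (SE 0.29). The median over the 8 was 1.78, beside -0.01 over all tested genes. With 2 mice a group, an exact permutation test of 1 gene could reach no two-sided p below 0.333.

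Chil3 and Wfdc21 were also the only genes of the 8 with an unadjusted edgeR p below 0.05, a level that 2.8% of the tested genes reached with a higher Cyba-KO value. DESeq2 called both, with adjusted p-values of 0.00183 for Chil3 and 0.00238 for Wfdc21, where it called 0.202% of genes as higher in Cyba-KO. The edgeR likelihood ratio test called the same 2 genes of the 8, with adjusted p-values of 0.0138 and 0.00639 and a background of 0.182%. The other 6 genes were not called by either tool. By position of the libraries, 3 of 8 genes (Camp, Chil3 and Wfdc21) had both Cyba-KO libraries above both WT libraries, against 17.6% of all tested genes.

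**Figure D2:**
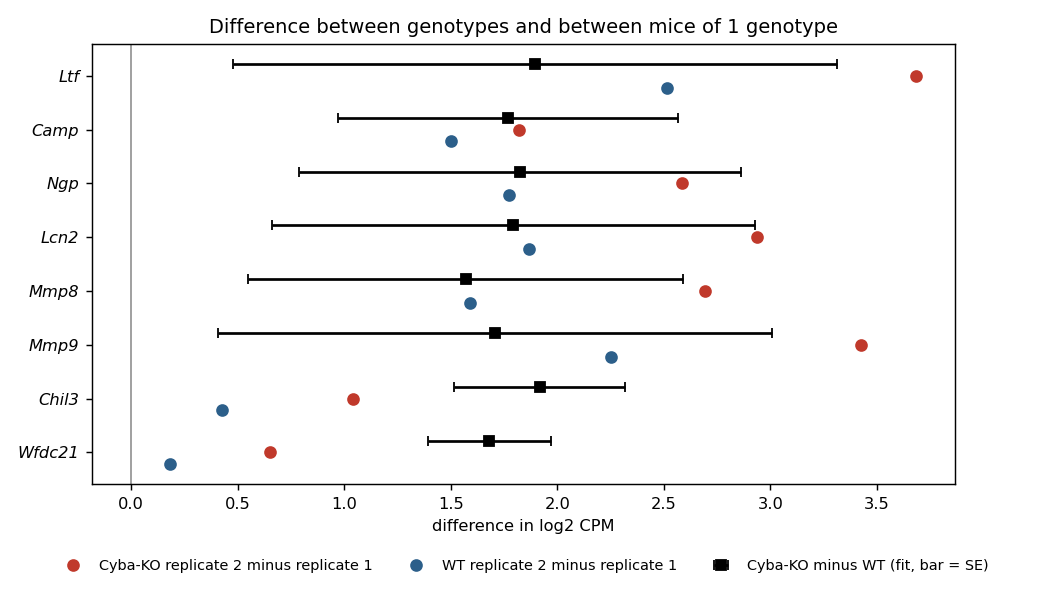
Differences in log2 CPM for each gene: Cyba-KO minus WT from the edgeR fit (black squares, bars are SE), Cyba-KO replicate 2 minus replicate 1 (red) and WT replicate 2 minus replicate 1 (blue). The black squares lie between 1.57 and 1.92, and the red points lie to their right for all genes but Chil3 and Wfdc21, where both coloured points lie to the left.

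The spread within a genotype set the genes apart from each other more than the genotype difference did. Between the Cyba-KO mice, replicate 2 exceeded replicate 1 by 12.9-fold for Ltf and 10.7-fold for Mmp9, by 6.01-fold to 7.66-fold for Lcn2, Mmp8 and Ngp, by 3.53-fold for Camp, 2.06-fold for Chil3 and 1.57-fold for Wfdc21. Between the WT mice the folds were 5.71 for Ltf, 4.76 for Mmp9, 3.01 to 3.64 for Lcn2, Ngp and Mmp8, 2.83 for Camp, 1.34 for Chil3 and 1.13 for Wfdc21. Replicate 2 was above replicate 1 in both genotypes for 8 of 8 genes, against 37.7% of all tested genes. Taken singly, 49.2% of tested genes were higher in Cyba-KO replicate 2 than in Cyba-KO replicate 1, and 50.2% were higher in WT replicate 2 than in WT replicate 1. The number of tested genes with a larger difference between the Cyba-KO mice was 6 for Lcn2, 9 for Mmp8, 10 for Ngp, 61 for Camp, 344 for Chil3 and 801 for Wfdc21.

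Sequencing error was small beside most of these differences. Each library was run on 4 lanes, and the coefficient of variation of a gene over the lanes of 1 library ran from 0.858% to 27.2%, the high end in Wfdc21. With 140 and 150 reads in WT replicates 1 and 2, Wfdc21 was the gene whose WT libraries could not be told apart at this depth. The ratio of the lane variance to that of counting alone had a median of 0.578.

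Set against the same replicate number, the genotype difference kept 1 direction. Cyba-KO replicate 1 was above WT replicate 1 for all 8 genes, by 1.60-fold (Mmp8 and Mmp9) to 2.90-fold (Chil3), and Cyba-KO replicate 2 was above WT replicate 2 by 3.42-fold (Mmp8) to 4.43-fold (Chil3). The labels do not say that mice of the same number share a litter, a day or a batch. A fit of edgeR with the replicate number as a block called 8 of 8 genes, where it called 5.48% of the tested genes as higher in Cyba-KO.

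**Figure D3:**
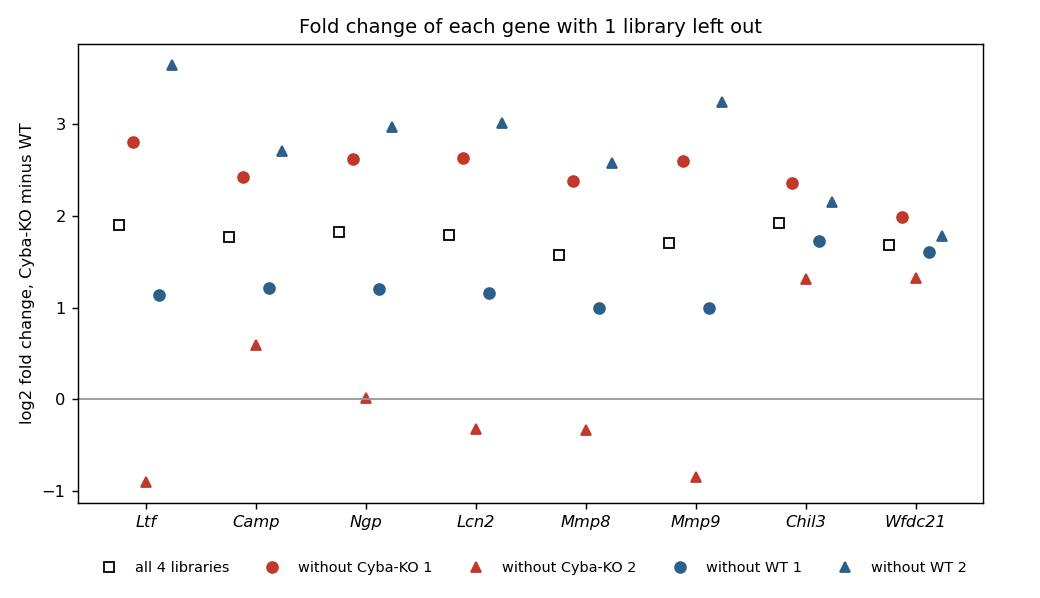
Log2 fold change, Cyba-KO minus WT, of each gene in the edgeR fit with all 4 libraries (open squares) and with 1 library left out (filled marks, red for a Cyba-KO library and blue for a WT library). Without Cyba-KO replicate 2 the value is below 0 for Ltf, Lcn2, Mmp8 and Mmp9, and between 0.02 and 1.32 for the other 4 genes.

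Cyba-KO replicate 2 decided the direction for 4 of the 8 genes. Without it the log2 fold change was -0.90 for Ltf, -0.85 for Mmp9, -0.33 for Mmp8 and -0.32 for Lcn2, and 0.02 for Ngp and 0.59 for Camp. Chil3 kept 1.31 and Wfdc21 kept 1.32. The median over the 8 was then -0.15, against 2.51 without Cyba-KO replicate 1, 1.18 without WT replicate 1 and 2.84 without WT replicate 2. No gene of the 8 passed the test in any of these fits, in which the lone library of a genotype is assumed to vary like the other genotype.

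Taken as a group, the 8 genes made up 0.0518% and 0.295% of the reads of all kept genes in Cyba-KO replicates 1 and 2. In WT replicates 1 and 2 they made up 0.0231% and 0.0734%. Their make-up differed between replicate numbers more than between genotypes. Ltf took 10.4% and 24.8% of their reads in Cyba-KO replicates 1 and 2 and 13.4% and 24.0% in WT replicates 1 and 2. Chil3 ran the other way, with 28.5% and 10.8% in Cyba-KO and 22.7% and 9.59% in WT, whereas Ngp stayed between 31.4% and 34.9% in the 4 libraries. The ratio of Ltf to Chil3 CPM was therefore 0.366 and 2.29 in Cyba-KO replicates 1 and 2, and 0.589 and 2.50 in WT replicates 1 and 2.

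**Figure D4:**
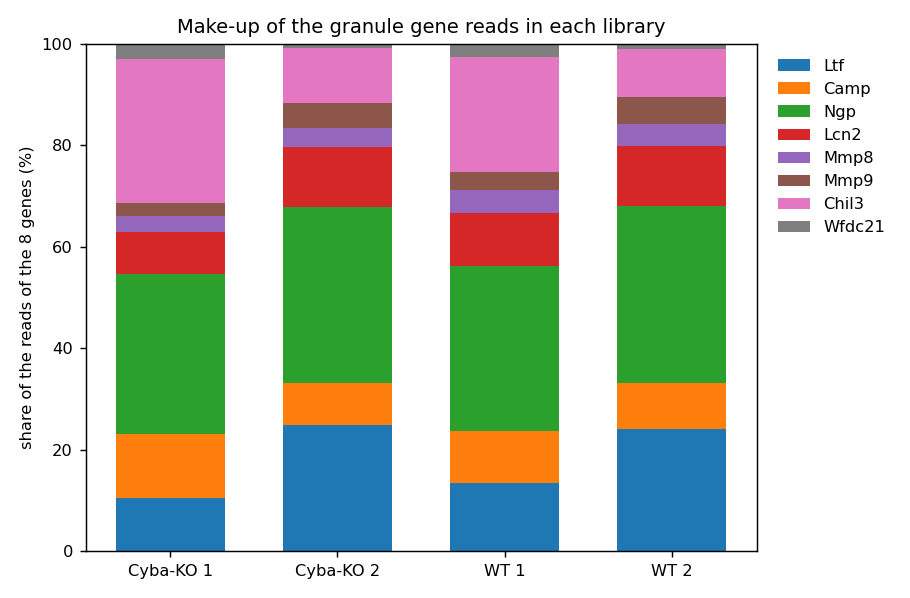
Share of the summed reads of the 8 genes taken by each gene (%, stacked to 100) in the 2 Cyba-KO libraries (left) and the 2 WT libraries (right). In replicate 1 of each genotype Chil3 takes 22.7% to 28.5%, and in replicate 2 Ltf takes 24.0% to 24.8%.

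Between genes, levels were compared as TPM, which divides by transcript length. In Cyba-KO the order of the mean TPM was Ltf (561 ± 698), Ngp (521 ± 552), Camp (258 ± 222), Lcn2 (251 ± 284), Chil3 (210 ± 126), Wfdc21 (91.2 ± 37.4), Mmp9 (27.9 ± 33.0) and Mmp8 (25.0 ± 27.1) (SD, n = 2). In WT it was Ngp (144 ± 113), Ltf (138 ± 137), Camp (75.2 ± 51.6), Lcn2 (71.0 ± 57.8), Chil3 (54.3 ± 10.1), Wfdc21 (28.9 ± 3.16), Mmp8 (8.30 ± 5.96) and Mmp9 (8.19 ± 7.45) (SD, n = 2). Neighbours in either order differed by less than the larger of their SDs, apart from Wfdc21 and the protease after it in both genotypes, and Chil3 and Wfdc21 in WT. The proteases stood last in both genotypes. In replicate 1 of both genotypes Ngp and Chil3 were ahead of Ltf, at 131, 121 and 67.6 TPM in Cyba-KO and 64.3, 47.1 and 40.5 TPM in WT.

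The profile of each gene over the 4 libraries, as log2 CPM centred on the gene's mean, gave the closest distances between Ngp and Lcn2 (0.29) and between Ltf and Mmp9 (0.32). Chil3 lay closest to Wfdc21 (0.39), and Ltf and Wfdc21 were furthest apart (2.71). Of 11003 genes whose mean log2 CPM reached 1, the gene nearest to the median profile of the 8 was Cd177, a surface protein of neutrophils, at a distance of 0.08. Cd177 had 16.6 and 108 CPM in Cyba-KO replicates 1 and 2 and 8.43 and 27.6 CPM in WT replicates 1 and 2. The next 9 were Mmp25, Olfm4, Itgb2l, Chil1, Il1b, S100a9, C5ar1, Fpr1 and Ifitm6, at distances of 0.24 to 0.66. The gene nearest to Ltf was Fpr2, to Camp S100a9, to Ngp and Lcn2 Cd177, to Mmp8 Mmp25, to Mmp9 Ly6g, to Chil3 Arhgef37 and to Wfdc21 Lrg1. A likeness over 4 libraries is a description of those libraries.

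Primary granule genes, made at the preceding stage, were higher in Cyba-KO on average as well, but ordered the mice the other way. All 8 tested genes of that list had a log2 fold change above 0 (median 0.77), 0 passed the edgeR test, and 0 of 8 were higher in replicate 2 than in replicate 1 in either genotype. Elane, neutrophil elastase, had 2046 and 1298 CPM in Cyba-KO replicates 1 and 2 and 1269 and 614 CPM in WT replicates 1 and 2. Prtn3, proteinase 3, and Ctsc, the protease that activates both, followed the same order, with log2 fold changes of 0.89 (SE 0.43) and 0.93 (SE 0.32). The summed CPM of the 8 secondary and tertiary granule genes was 3.30% and 27.2% of that of the 8 primary granule genes in Cyba-KO replicates 1 and 2, and 1.98% and 12.8% in WT replicates 1 and 2.

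**Figure D5:**
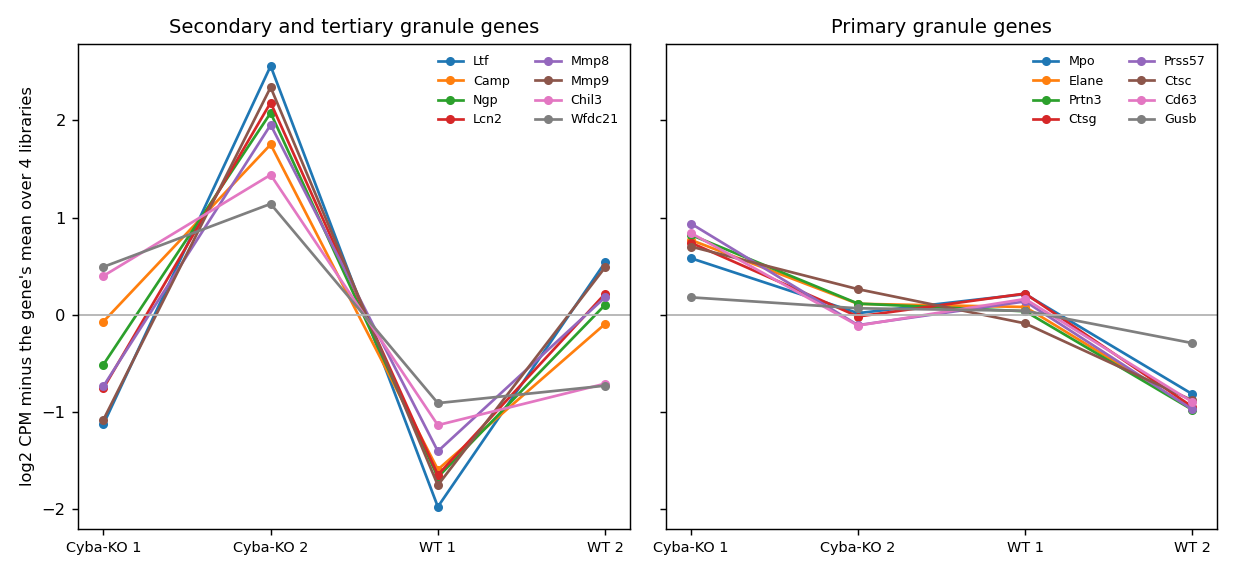
Log2 CPM minus the gene's mean over the 4 libraries, for the 8 secondary and tertiary granule genes (left) and 8 primary granule genes (right), in the Cyba-KO libraries followed by the WT libraries. Each line is a gene. Within each genotype the left-hand lines are higher at replicate 2, and the right-hand lines are lower there.

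Other secretory contents of the secondary and tertiary granules were split between these patterns. Of 12 tested genes, 12 had a log2 fold change above 0 with a median of 1.35, 8 had both Cyba-KO libraries above both WT libraries (17.6% of all tested genes), 6 were higher in Cyba-KO replicate 2 than in replicate 1, and 5 were higher in WT replicate 2 than in replicate 1. None passed the edgeR test. DESeq2 called 2 of them, Lyz2 and Lrg1, against 0.202% of all genes. Lyz2, lysozyme, had 672 and 828 CPM in Cyba-KO and 302 and 296 CPM in WT, with a log2 fold change of 1.33 (SE 0.16). Pglyrp1, which binds bacterial peptidoglycan, had 78.1 and 60.4 CPM in Cyba-KO and 36.1 and 17.5 CPM in WT, the order of the primary granule genes. Olfm4 and Chil1 followed Ltf instead, Olfm4 with 2.27 and 14.0 CPM in Cyba-KO and 1.26 and 3.52 CPM in WT.

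Proteins of the granule membranes and secretory vesicles had 10 of 10 tested genes with a log2 fold change above 0, a median of 1.20, 9 of 10 higher in Cyba-KO replicate 2 than in replicate 1, and 6 of 10 higher in WT replicate 2 than in replicate 1. Cybb, Itgam, Itgb2 and Ceacam1 were lower in WT replicate 2 than in WT replicate 1. DESeq2 called Itgam, which encodes the integrin chain CD11b, and Cybb, the oxidase subunit that pairs with p22phox, while edgeR called 0 of the list. Cybb had 160 and 219 CPM in Cyba-KO and 86.6 and 75.5 CPM in WT, with a log2 fold change of 1.23 (SE 0.20). Ceacam1, an adhesion receptor, had a log2 fold change of 0.90 (SE 0.20). The 11 tested regulators of granule formation had log2 fold changes above 0 with a median of 0.61, and 0 passed. Of these, Csf3r, the receptor for granulocyte colony-stimulating factor, had 195 and 167 CPM in Cyba-KO and 136 and 77.9 CPM in WT, while the log2 fold change was 0.98 (SE 0.41) for Cebpb and 0.61 (SE 0.26) for Rara. Cebpe, named here after its values were seen because it encodes C/EBP-epsilon, had 48.5 and 28.6 CPM in Cyba-KO and 27.1 and 12.7 CPM in WT. It was thus lower in replicate 2 of each genotype, where the granule genes were higher.

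Of 7 tested inhibitors and receptors of the granule proteins, 6 had a log2 fold change above 0 (median 0.33) and 0 passed. Lrp1, a scavenger receptor that takes up lactoferrin and matrix proteases, had a log2 fold change of 0.68 (SE 0.20), Reck, a membrane-bound inhibitor of matrix metalloproteinases, 0.51 (SE 0.27), and P2rx7, an ATP-gated channel, 0.33 (SE 0.18). Fpr2, a formyl peptide receptor, had 1.93 (SE 1.44), with 1.33 and 15.2 CPM in Cyba-KO and 0.463 and 3.88 CPM in WT, the pattern of Ltf. Timp1 and A2m, which inhibit matrix proteases, were too low to test. Of 10 tested paralogs of the 8 genes, 8 had a log2 fold change above 0 (median 0.67) and 0 passed. Chil4, Chil5 and Wfdc17 came first by p, with log2 fold changes of 2.07 (SE 0.58), 1.16 (SE 0.61) and 0.81 (SE 0.30).

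Many markers of mature neutrophils ordered the libraries as the granule genes did, but not all of them. All 15 tested markers had a log2 fold change above 0 with a median of 1.24, 13 of 15 were higher in Cyba-KO replicate 2 than in replicate 1, and 11 of 15 were higher in WT replicate 2 than in replicate 1. The median log2 difference between the mice was 1.07 in Cyba-KO and 0.26 in WT. Their summed CPM was 1463 and 2932 in Cyba-KO replicates 1 and 2 and 832 and 1027 in WT replicates 1 and 2. Ly6g, the defining surface antigen, had 22 and 343 reads in Cyba-KO and 18 and 90 reads in WT, and no tested marker was at 0. Mcemp1, the 1 marker that DESeq2 called, had 19.2 and 29.8 CPM in Cyba-KO and 9.60 and 9.72 CPM in WT, while the log2 fold change was 0.87 (SE 0.18) for Padi4 and 1.05 (SE 0.29) for Trem1. In WT, Padi4 and Trem1 were lower in replicate 2 than in replicate 1. The part of residual mature neutrophils in the granule gene differences was not tested.

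Other cell types did not share 1 order of the libraries, and none of their markers passed the edgeR test. Monocyte markers were above 0 in log2 fold change for 11 of 12 genes, with summed CPM of 3614 and 3045 in Cyba-KO and 2588 and 1729 in WT; Ccr2, Fn1 and S100a4 had values of 0.63, 1.05 and 0.83, and DESeq2 called Fn1 (adjusted p of 0.0204). Eosinophil markers had log2 fold changes above 0 for 8 of 8 tested genes (median 1.21). They summed to 2271 and 628 CPM in Cyba-KO and 752 and 427 CPM in WT. Prg2, Ear2 and Ear6 came first by p, and 0 of 8 were higher in Cyba-KO replicate 2 than in replicate 1. Macrophage markers, among them Adgre1, C1qc and Vcam1, summed to 260 and 120 CPM in Cyba-KO and 119 and 154 CPM in WT. Of 10 such genes, 9 were higher in WT replicate 2 than in WT replicate 1. The exception was Vcam1, the largest part of each sum, at 55.3 and 41.0 CPM in WT. In Cyba-KO, 0 of 10 were higher in replicate 2 than in replicate 1, and Marco was at 0 in replicate 2. Erythroid markers, among them Hba-a1 and Tfrc, had log2 fold changes below 0 for 8 of 8 genes and were higher in replicate 2 than in replicate 1 in both genotypes, summing to 1291 and 3274 CPM in Cyba-KO and 2473 and 5211 CPM in WT. B lineage markers, of which Cd79a, Cd79b and Vpreb1 came first by p, summed to 64.2 and 73.9 CPM in Cyba-KO and 44.1 and 29.0 CPM in WT. Stem cell markers had a median log2 fold change of 0.05, with Kit at -0.15 and Procr at 0.64. The 3 tested osteoclast markers Acp5, Ctsk and Ocstamp lay between -0.28 and 0.14. The cell division genes Mki67, Top2a and Ccnb1 had -0.40, -0.18 and -0.36. Of 10 cell division genes, 9 were higher in replicate 2 than in replicate 1 in Cyba-KO, and 10 in WT. The part of these cell types in the granule gene differences was not tested.

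Ltf, Ngp and Camp lie on the same stretch of chromosome 9, and the genes between them had log2 fold changes around 0. Between Camp and Ltf (chr9:109849618-111019270) the annotation holds 52 genes, of which 19 besides Ngp were tested. Of these 8 had a log2 fold change above 0 and 11 below 0, between -0.56 and 0.45 with a median of -0.03, and 0 passed the edgeR test. Their median log2 difference between the Cyba-KO mice was -0.11, with 2.21 the highest (Prss50, named after its values were seen).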

How the data were processed

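RNA-seq libraries of 4 mice were analysed, grouped by sample title. Per the submitters' processing notes, Salmon, DESeq2 and GRCm38 were used; versions, annotation and strand setting are not given in the sources used here. The deposited estimated counts covered 22520 genes in 4 lanes a library. The authors' tables had lost the decimal point of numbers with 3 or more decimals. The deposited TPM values had the same fault and were treated as a plain score until repaired. Readings were weighed jointly over lanes, TPM and libraries, and 21981 genes were kept whose expected error was at most 5% or 1 read. Of 128 lane values of the 8 genes, 4 were restored, all in Chil3. Repaired TPM lanes summed to between 1040251 and 1054883, slightly above what TPM sums to by definition.

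Lanes were summed and rounded, and symbols came from GENCODE M21, which matched 22384 identifiers. The test was edgeR 4.0.16 (TMM factors, default filter, genotype only, adjusted p of 0.05). CPM uses TMM-scaled sizes, and the SE is the log2 fold change divided by the root of F. Alternatives were DESeq2 1.42.0, limma 3.58.1, other scalings, filters, repairs, a replicate block and leaving out each library. Beside the 8 genes and Cyba, up to 3 genes a list with the smallest p were named, and the 10 genes nearest to the median profile. A few genes so chosen are left out here. A few others, named to describe a list, were chosen after their values were seen. The 8 genes and the lists were chosen with earlier results of these data known. Each sample is taken as 1 mouse, as the series' design text gives 2 mice a genotype. Tested on simulated data of this comparison, the repair kept 187 of 200 changed genes. There edgeR called 89 of 92 with 4-fold and 24 of 95 with 2-fold changes, and 5 unchanged genes. Every simulated gene varied independently, at a single biological coefficient of variation of 0.24. These shares therefore do not carry over to the real libraries, where edgeR called 0 of 13723 genes. Calling at a wider spread, such as the 12.9-fold between the Cyba-KO mice for Ltf, was not tested.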

Additional observations from a re-analysis of the deposited data

How the results depend on the processing

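Of 125 values of single genes under the alternatives, 109 kept both direction and call, 12 were newly called and 4 changed direction. The 4 arose without Cyba-KO replicate 2: Ltf at -0.90, Lcn2 at -0.32, Mmp8 at -0.33 and Mmp9 at -0.85 in log2 fold change. Leaving out each library in turn gave a median over the 8 genes of -0.15 to 2.84, called 0 to 3 genes of all tested, and called 0 of the 8 genes. For these 4 genes the highest value came without WT replicate 2, at 3.64 for Ltf, 3.01 for Lcn2, 2.57 for Mmp8 and 3.23 for Mmp9. Over all genes, edgeR's 0 calls became 31 with DESeq2, 29 with the likelihood ratio test and 1 with limma-trend on TPM, for either pseudocount (1 or 0.1). Of the 8 genes, DESeq2 and the likelihood ratio test each called 2. With the replicate number as a block, 1179 genes and all 8 of the granule genes were called (adjusted p of 0.0034 to 0.0295 in edgeR), where 5.48% of tested genes were called as higher in Cyba-KO. The deviations of same-numbered libraries from their group means had a correlation of 0.62 over 13560 genes, but with 2 pairs and no label that ties them, the mice share only a number. The other scalings, filters and repairs called 0 genes and gave medians of 1.70 to 1.80, and limma-voom called 0 genes. Counts from lanes with a single reading gave no value for Camp, Ngp and Lcn2. The fewest reads of any of the 8 genes in a library were 140, for Wfdc21 in WT replicate 1.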

Other observations

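Some cytosolic protease inhibitors of mature mouse neutrophils, the stefins, were too low to test. Their few reads lay mainly in the library where the granule genes were highest. Stfa2 had 0 and 10 reads in Cyba-KO replicates 1 and 2, and 0 reads in each WT library. Stfa3 had 0 and 6 reads in Cyba-KO and 1 and 0 reads in WT, BC100530 had 0 and 6 reads in Cyba-KO and 0 in each WT library, and Stfa1 had 1 and 4 reads in Cyba-KO and 0 in each WT library. These genes are near-identical copies of each other, so the division of reads among them is uncertain. The related Stfa2l1 was high enough to test, with 5 and 58 reads in Cyba-KO replicates 1 and 2 and 3 and 23 reads in WT replicates 1 and 2. Its log2 fold change was 1.24 (SE 1.36), and WT replicate 2 lay above Cyba-KO replicate 1.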
